A study of Mus musculus with 21 samples.

Results

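The 10 genes described here are the claudins *Cldn1*, *Cldn3*, *Cldn4*, *Cldn5*, *Cldn6*, *Cldn7* and *Cldn8* with *Epcam*, *Ocln* and *Tjp1*, out of 49652 genes in the count files. They were chosen by name, as claudins and tight junction genes, and followed as CPM, the reads of a gene relative to all counted reads, scaled by the TMM method in each tumor. RNA was sequenced in bulk from 21 mouse mammary tumors, 9 controls and 12 of the RhoC cohort. All of the mice were virgin females that carried FloxNeoNeuNT, an activated Neu cDNA placed in the *Erbb2* locus behind a loxP-flanked stop, and MMTV-CreNLST, a Cre transgene driven by the MMTV promoter, whose activity in mammary epithelium is limited in this line. Of the controls, 7 had the genotype Gata4(loxP/+);FloxNeoNeuNT;MMTV-CreNLST and 2 had FloxNeoNeuNT;MMTV-CreNLST. The RhoC tumors had the genotype R26(RhoC/+);FloxNeoNeuNT;MMTV-CreNLST, in which Cre switches on wildtype RhoC from the Rosa26 locus. Ages were not given in the labels.

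Tight junctions seal the space between neighboring epithelial or endothelial cells. Their strands are built from claudins, membrane proteins that pass through the membrane several times and decide which ions the junction lets through, together with occludin (*Ocln*). The scaffold ZO-1 (*Tjp1*) ties these proteins to the actin cytoskeleton. *Epcam* is an epithelial adhesion protein that binds claudin 7 (*Cldn7*) and keeps it from being degraded. In the mammary gland *Cldn3*, *Cldn4*, *Cldn7* and *Cldn8* are epithelial claudins, *Cldn5* is the claudin of blood vessels, and *Cldn6* is best known from embryonic epithelium. Low claudin 3, 4 and 7 levels mark the claudin-low class of breast tumors, which is rich in mesenchymal genes.

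Control tumors (N) came from 9 mice. RhoC tumors (R) came from 8 mice, with 4 tumors (R-13 to R-16) from mouse P497 and 2 (R-6 and R-7) from mouse N9255, and R-18, whose label names no mouse, counted as 1. Tumors of 1 mouse are not independent, and the consensus correlation within a mouse over all tested genes was 0.27. Total counts were 47552423 to 100741339 in controls and 47309780 to 85326903 in RhoC tumors. The 8 luminal epithelium markers summed to 1205 to 5872 CPM in controls and 1065 to 3660 CPM in RhoC tumors, and basal, endothelial, fibroblast and leukocyte markers were present in every tumor as well. The transcript of the *Rhoc* gene itself did not separate the cohorts, with a log2 fold change of 0.19 ± 0.34 (SE) and an adjusted p of 0.774 in edgeR's quasi-likelihood test. It ranged over 25.98 to 172 CPM in controls and 22.8 to 148 CPM in the RhoC cohort, which overlapped. *Erbb2*, the locus of the Neu allele, had a log2 fold change of −0.73 ± 0.46 (SE; edgeR adjusted p = 0.370), and *Gata4*, at 0 to 50.04 CPM in controls and 0 to 5.51 CPM in RhoC tumors, did not pass the count filter. The histology of 18 tumors was taken from the study's list and not from the sample labels, so it is used as a description without a test.

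The promoter windows of 4 members are printed because the results turn on them. *Cldn3* and *Cldn7* were the most closely correlated pair over tumors, and *Cldn6* differed most between cohorts. *Cldn4* lies beside *Cldn3* on chromosome 5, and its ratio to *Cldn3* in CPM ran from 0.0281 in R-21 to 14.7 in R-6. The sequences are RefSeq's on GRCm38.p6, where 9 of the 10 members matched an entry and *Cldn8* did not. They cover the start site and are mostly upstream of it, 5′ to 3′ on the gene's strand. Capitals mark CAGGTG or its reverse complement CACCTG, the E-box known to be bound by Snail and ZEB repressors, and TGANTCA, the AP-1 motif. Both strands were searched and no capital stretch belongs to both motifs.
Cldn3, chr5:134985964-134986263, plus strand: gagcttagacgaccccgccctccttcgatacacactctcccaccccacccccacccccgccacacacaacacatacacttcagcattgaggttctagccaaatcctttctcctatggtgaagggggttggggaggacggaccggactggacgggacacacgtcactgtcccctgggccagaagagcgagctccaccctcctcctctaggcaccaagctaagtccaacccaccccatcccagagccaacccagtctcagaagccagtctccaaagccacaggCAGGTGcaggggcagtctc
Cldn4, chr5:134946885-134947184, minus strand: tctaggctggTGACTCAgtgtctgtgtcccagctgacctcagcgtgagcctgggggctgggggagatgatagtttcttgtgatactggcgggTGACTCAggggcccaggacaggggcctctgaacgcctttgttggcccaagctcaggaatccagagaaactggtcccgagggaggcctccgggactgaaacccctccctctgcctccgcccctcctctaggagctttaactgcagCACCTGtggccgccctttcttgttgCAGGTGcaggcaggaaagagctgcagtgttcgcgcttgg
Cldn7, chr11:69964529-69964828, plus strand: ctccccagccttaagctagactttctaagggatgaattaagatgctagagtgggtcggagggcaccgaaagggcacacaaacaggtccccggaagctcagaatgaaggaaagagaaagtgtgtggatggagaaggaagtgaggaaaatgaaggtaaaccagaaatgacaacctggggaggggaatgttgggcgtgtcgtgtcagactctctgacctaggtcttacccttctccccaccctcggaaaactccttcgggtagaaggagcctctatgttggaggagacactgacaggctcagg
Cldn6, chr17:23679115-23679414, plus strand: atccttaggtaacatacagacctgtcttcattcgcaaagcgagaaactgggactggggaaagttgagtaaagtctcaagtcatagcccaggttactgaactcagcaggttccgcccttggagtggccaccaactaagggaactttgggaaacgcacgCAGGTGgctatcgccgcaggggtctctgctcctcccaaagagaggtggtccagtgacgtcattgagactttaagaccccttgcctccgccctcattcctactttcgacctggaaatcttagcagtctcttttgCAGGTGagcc
The *Cldn4* window held 2 E-boxes and 2 AP-1 motifs, the *Cldn6* window 2 E-boxes, the *Cldn3* window 1 E-box and the *Cldn7* window neither. Of the others, *Epcam* had 2 E-boxes and *Ocln* had 1, while *Cldn1*, *Cldn5* and *Tjp1* had none, and AP-1 was found in no member but *Cldn4*. Among 32851 promoters of the same length, 20.2% held the E-box and 7.81% held TGANTCA. A match says only that these letters are present.

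Across tumors the members stood at very different levels, which were compared per length in the deposited FPKM (fragments scaled to gene length and depth). *Epcam* had the highest median at 260 FPKM, followed by *Cldn3* at 105, *Cldn7* at 58.8, *Cldn4* at 48.0, *Cldn1* at 43.9 and *Tjp1* at 41.3. Lower medians were found for *Ocln* at 12.6 FPKM, *Cldn8* at 8.57, *Cldn5* at 3.11 and *Cldn6* at 0.0785. Only 3 steps of this order exceeded 1 SD of the log2 ratio between neighbors over tumors: *Epcam* was above *Cldn3* in 21 of 21 tumors, *Cldn3* above *Cldn7* in 19 of 21 and *Tjp1* above *Ocln* in 21 of 21. The steps from *Cldn7* to *Cldn4*, *Cldn1* and *Tjp1*, and those from *Ocln* to *Cldn8* and *Cldn5*, did not exceed that spread. The step from *Cldn5* to *Cldn6* was not tested in this way because *Cldn6* was at 0 in some tumors, but *Cldn5* was higher in 18 of 21.

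The members also differed in how far they varied from tumor to tumor. The highest tumor was 4.75-fold above the lowest for *Epcam*, 3.28-fold for *Tjp1*, 6.28-fold for *Ocln* and 6.98-fold for *Cldn7*. The median of all 19315 genes tested was 6.44-fold. *Cldn4* varied 106-fold, *Cldn8* 84.3-fold, *Cldn1* 75.3-fold, *Cldn5* 26.2-fold and *Cldn3* 12.2-fold.

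**Figure D1:**
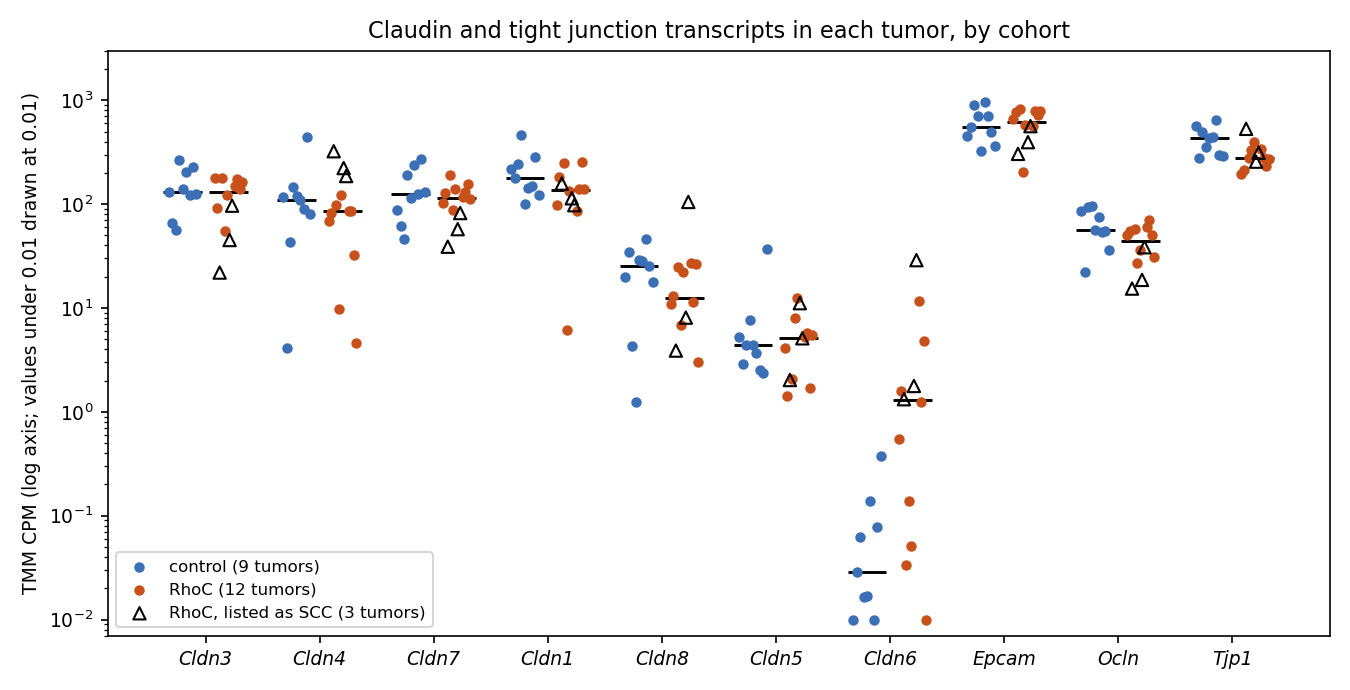
TMM CPM of the 10 members (log axis) in each of 9 control and 12 RhoC tumors, with a line at each cohort's median. Triangles are the 3 RhoC tumors listed as squamous cell carcinoma. The cohorts overlap for each member, *Cldn6* reaches 28.9 CPM in a RhoC tumor against at most 0.379 CPM in controls, and the triangles lie high for *Cldn4* and low for *Cldn7*.

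The first comparison was of the RhoC cohort with the controls. No member was called at an adjusted p under 0.05 by edgeR's quasi-likelihood test, while 43 of all 19315 genes tested (0.223%) were called. All 10 passed the count filter, *Cldn6* only through the RhoC tumors in which it is high. An unadjusted p under 0.05 was reached by 3 of the 10 members (*Cldn6*, *Tjp1* and *Ocln*) and by 20.5% of all genes. DESeq2 called 6.24% of all genes and, of the members, *Cldn6*, a call that rests on the same filter. The values of the cohorts overlapped for each of the 10 members, as for all but 3 of the genes tested (0.0155%). The estimate was below 0 for 9 of 10 members, with a median log2 fold change of −0.33 beside −0.01 over all genes tested. None of the 9 was called, and *Cldn4*, *Cldn5*, *Cldn8* and *Epcam* changed sign in some of the other fits. In bulk tissue a lower level from fewer cells of a type and from less RNA per cell cannot be told apart.

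**Figure D2:**
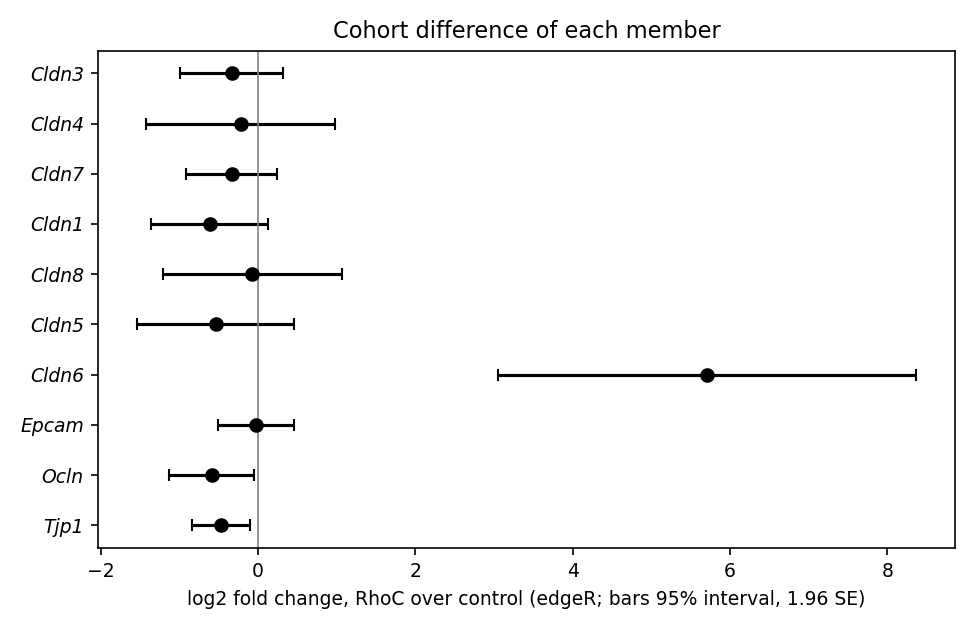
Log2 fold change of RhoC over control tumors from edgeR for each member, with bars for the 95% interval. The bars are before adjustment, and no member was called after it. The bar of *Cldn6* lies above 0 at 3.05 to 8.36, in a fit that it entered only through the RhoC tumors in which it is high. Those of *Tjp1* and *Ocln* lie below 0, and the other 7 include 0.

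Among the strand-forming claudins of the epithelium, *Cldn3*, a claudin of glandular epithelium, measured 56.6 to 269 CPM in controls (median 132) and 21.9 to 180 CPM in RhoC tumors (median 132). The cohorts overlapped, and the lowest RhoC tumors were R-6, R-13 and R-10. The log2 fold change was −0.33 ± 0.33 (SE; 95% interval −0.99 to 0.32; edgeR adjusted p = 0.584).

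*Cldn7*, the claudin that partners *Epcam*, measured 46.1 to 272 CPM in controls (median 125) and 38.9 to 193 CPM in RhoC tumors (median 114). The ranges overlapped, with the controls N-15 and N-8 above every RhoC tumor and R-6 below every control. Its log2 fold change was −0.33 ± 0.30 (SE; 95% interval −0.91 to 0.25; edgeR adjusted p = 0.536).

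*Cldn4*, which lets few cations through the junction, measured 4.16 to 441 CPM in controls (median 110) and 4.58 to 323 CPM in RhoC tumors (median 85.5). A very low tumor was present in each cohort, N-3 at 4.16 and R-21 at 4.58 CPM, and R-10 followed at 9.81 CPM. Its log2 fold change was −0.22 ± 0.61 (SE; 95% interval −1.42 to 0.98; edgeR adjusted p = 0.864), and without N-15, the control at 441 CPM, it was 0.31.

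*Cldn1*, known for the skin barrier, measured 101 to 462 CPM in controls (median 177) and 6.13 to 253 CPM in RhoC tumors (median 136). R-10 stood alone at 6.13 CPM, and the next lowest RhoC tumor, R-15, was at 86.3 CPM. R-10 also had the lowest luminal marker sum of all tumors (1065 CPM) and the highest endothelial (681 CPM) and skeletal muscle (722 CPM) sums of the RhoC cohort, and their part in its *Cldn1* level was not tested. RhoC over control, the log2 fold change was −0.61 ± 0.38 (SE; 95% interval −1.36 to 0.13; edgeR adjusted p = 0.363).

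*Cldn8*, a claudin of the kidney and of ductal epithelium, measured 1.25 to 46.5 CPM in controls (median 25.4) and 3.0 to 105 CPM in RhoC tumors (median 12.4). The highest RhoC value was R-14, a squamous cell carcinoma, while the squamous R-6 and R-13 were at 3.89 and 8.08 CPM. For *Cldn8* the log2 fold change was −0.07 ± 0.58 (SE; 95% interval −1.21 to 1.06; edgeR adjusted p = 0.953), and without R-14 it was −0.69.

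*Epcam*, the marker of epithelial cells, measured 323 to 960 CPM in controls (median 548) and 202 to 822 CPM in RhoC tumors (median 619). The cohorts overlapped, and R-10 at 202 CPM and R-6 at 305 CPM lay below the range of the controls. On the log2 scale the fold change was −0.02 ± 0.25 (SE; 95% interval −0.51 to 0.46; edgeR adjusted p = 0.966).

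*Tjp1* (ENSMUSG00000030516.14, chr7:65296165-65527696 on GRCm38), the ZO-1 scaffold, had the narrowest spread of the members. Controls measured 276 to 642 CPM (median 430) and RhoC tumors 196 to 531 CPM (median 279). The cohorts overlapped, yet 1 of 12 RhoC tumors (R-6, at 531 CPM) was above the control median, and 8 of 9 controls were above the RhoC median. The log2 fold change was −0.47 ± 0.19 (SE; 95% interval −0.84 to −0.10), with an unadjusted p of 0.0201 and an adjusted p of 0.174 in edgeR's quasi-likelihood test. The mean log2 CPM differed by −0.46 in a 2-sided exact permutation test over 293930 labelings (unadjusted p = 0.0218), and by −0.52 over mouse means (unadjusted exact permutation p = 0.0230). Without the 4 tumors of mouse P497 the difference was −0.47, at an unadjusted exact permutation p of 0.0553.

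*Ocln* (ENSMUSG00000021638.12, chr13:100496507-100552718 on GRCm38), a membrane protein of the strands, measured 22.3 to 96.6 CPM in controls (median 56.6) and 15.4 to 70.0 CPM in RhoC tumors (median 44.2). The 2 lowest tumors were R-6 and R-13, followed by the control N-3. The log2 fold change was −0.59 ± 0.27 (SE; 95% interval −1.13 to −0.05), with an unadjusted p of 0.0443 and an adjusted p of 0.233 in edgeR. In the 2-sided exact permutation test the unadjusted p was 0.0676, and it was 0.0536 over mouse means.

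*Cldn5*, made by endothelial cells, measured 2.38 to 36.8 CPM in controls (median 4.37) and 1.41 to 12.4 CPM in RhoC tumors (median 5.16). The control N-17 stood apart at 36.8 CPM, against at most 7.74 CPM in the other controls. The log2 fold change was −0.54 ± 0.51 (SE; 95% interval −1.53 to 0.46; edgeR adjusted p = 0.562), and without N-17 it was 0.37. N-17 was also the control with the highest sums of endothelial (1089 CPM), fibroblast (7345 CPM), adipocyte (370 CPM) and skeletal muscle markers (5945 CPM). The medians of these sums over controls were 390, 3122, 4.88 and 1.19 CPM. Their part in the *Cldn5* value of N-17 was not tested.

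To set *Cldn5* against the amount of vessel RNA, it was compared with the summed CPM of the endothelial genes *Pecam1* and *Cdh5*. Its log2 level followed that sum over 21 tumors with a Pearson r of 0.787 and a Spearman coefficient of 0.773 (unadjusted permutation p = 6e-05 and 9e-05). Without the 2 tumors farthest from the median, N-17 and R-2, r was 0.699. The log2 ratio of *Cldn5* to the sum differed between cohorts by −0.14, a 2-sided exact permutation p of 0.666.

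*Cldn6* (ENSMUSG00000023906.3, chr17:23679249-23682446 on GRCm38) was the member with the largest cohort difference. In controls it was near the limit of detection, with 0, 2, 3, 1, 1, 12, 0, 4 and 26 reads in N-1, N-3, N-4, N-6, N-7, N-8, N-9, N-15 and N-17, or 0 to 0.379 CPM (median 0.0290). In RhoC tumors it measured 0 to 28.9 CPM (median 1.29). R-14 was highest at 28.9 CPM, followed by R-15 at 11.6 and R-18 at 4.84 CPM. A further 5 tumors lay between 0.545 and 1.78 CPM, namely R-13, R-2, R-6, R-16 and R-1. The remaining 4, R-10 at 0.138, R-12 at 0.0509, R-7 at 0.0336 and R-21 at 0 CPM, were within the range of the controls. In N-1, N-9 and R-21, where no read was counted, a count of 0 allows up to 3 reads, or 0.0543, 0.0406 and 0.0443 CPM, for counting error only.

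Thus 8 of 12 RhoC tumors were above every control, and they came from 5 of 8 mice. All 4 tumors of mouse P497 were among them, and R-14 and R-15 of that mouse held 81.1% of the 3310 *Cldn6* reads of the cohort. The controls held 49 reads in all. The ratio of mean CPM was 54.2, and 14.4 without R-14 and R-15, which were left out after their values were seen. By mouse, mean *Cldn6* was 10.9 CPM in P497, 4.84 in the mouse of R-18, 1.59 in N8907, 0.679 in N9255, 0.545 in N7682, 0.138 in N9931, 0.0509 in N9934 and 0 in Q3738.

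In log2 CPM of the genes that passed the filter, the mean of *Cldn6* differed by 3.45 in the 2-sided exact permutation test (unadjusted p = 0.00531). Over mouse means the difference was 2.65 (unadjusted exact permutation p = 0.0181), and without the tumors of P497 it was 2.13 (unadjusted exact permutation p = 0.0434). With every gene of at least 1 count kept, the edgeR log2 fold change was 5.74 and the adjusted p was 0.0733. The permutation tests and the fits on filtered genes are given as a description, because *Cldn6* entered them only through the tumors in which it is high. On filtered genes edgeR gave 5.70 ± 1.36 (SE; unadjusted p = 3.70e-04, adjusted p = 0.0602). Of the 13 edgeR fits that left out 1 tumor and gave a value, 11 kept an adjusted p above 0.05, up to 0.102 without N-4. The others had 0.0497 without N-15 and 0.0477 without R-12. The edgeR adjusted p was 0.0381 with only the *Gata4* loxP controls and 0.0655 with library size in place of TMM. DESeq2 gave 4.61 (adjusted p = 4.39e-04), and voom of limma, fitted with a random effect for the mouse, gave 3.51 (adjusted p = 0.328). The gene failed the filter when any 1 of the 8 tumors above every control was left out, without P497, without the squamous cell carcinomas and with counts summed per mouse, so these fits gave no value. *Cldn6* and *Cldn9* lie beside each other on chromosome 17, and *Cldn9* did not share the pattern, since it reached 0.311 CPM in the RhoC cohort and 1.51 CPM in the control N-15.

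**Figure D3:**
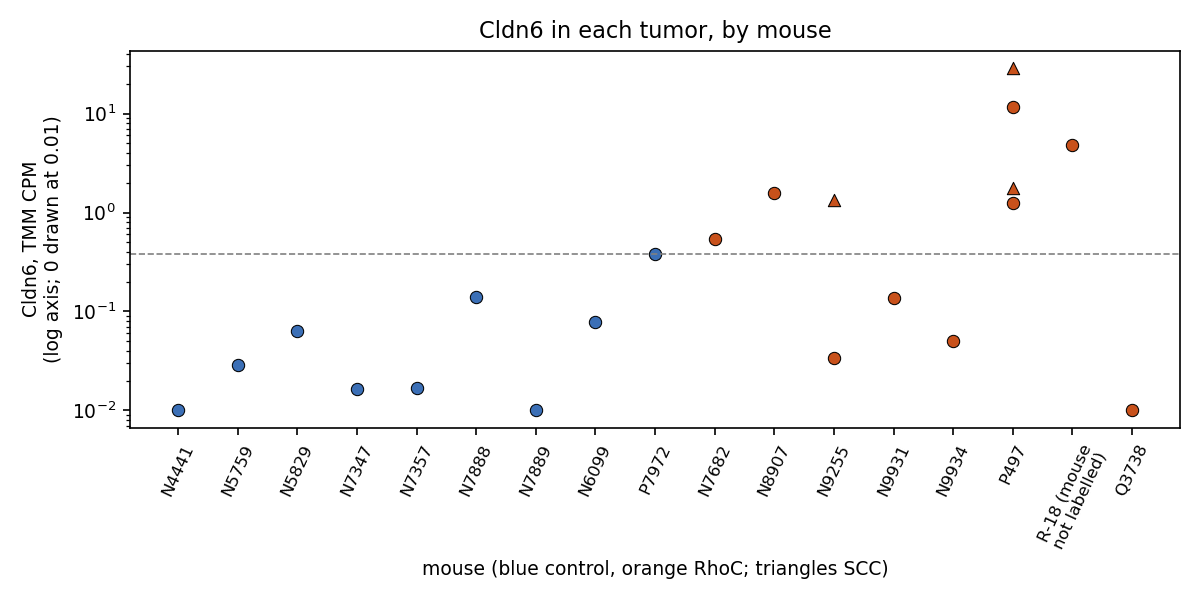
*Cldn6* in TMM CPM (log axis, 0 drawn at 0.01) in each tumor, arranged by mouse, with controls in blue, RhoC in orange and squamous cell carcinomas as triangles. The dashed line is the highest control at 0.379 CPM. All 4 tumors of P497 lie above it, from 1.25 to 28.9 CPM, while the 2 tumors of N9255 lie on either side.

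To take account of how much luminal epithelium each tumor held, members were also expressed relative to the summed CPM of the luminal keratins *Krt8* and *Krt18*. On this scale the log2 ratio of *Cldn6* differed between cohorts by 3.60 (2-sided exact permutation p = 0.00253, unadjusted). That of *Tjp1* differed by −0.31 (exact permutation p = 0.521) and that of *Ocln* by −0.44 (exact permutation p = 0.369). For the other 7 members the difference lay between −0.65 (*Cldn1*) and 0.12 (*Epcam*), and the lowest exact permutation p was 0.239. No difference but that of *Cldn6* passed an unadjusted 0.05 on this scale, and *Cldn6* had a value here only through the tumors in which it is high. The spread was wider than in log2 CPM. The SDs in RhoC tumors and controls were 0.97 and 1.19 against 0.40 and 0.44 for *Tjp1*, and 1.02 and 1.12 against 0.69 and 0.69 for *Ocln*. The part of luminal content in the differences of these 2 was not tested.

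The tumors listed as squamous cell carcinoma (R-6 of mouse N9255, R-13 and R-14 of mouse P497) were next set beside the 4 RhoC tumors listed as complex adenocarcinoma (R-7 of N9255, R-10, R-12 and R-16 of P497). This comparison has no test, because histology was not in the labels and the tumors share mice. *Cldn4* measured 323, 223 and 186 CPM in the squamous tumors and 98.2, 9.81, 122 and 85.9 CPM in the complex adenocarcinomas. The groups did not overlap, and the squamous tumors were also above all 9 other RhoC tumors, as for 4.76% of all tested genes. Among all tested genes, 8.44% were above all complex adenocarcinomas in this way.

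*Cldn7* measured 38.9, 57.5 and 82.1 CPM in the squamous tumors and 193, 88.5, 140 and 130 CPM in the complex adenocarcinomas. The order was the opposite of that of *Cldn4*, again without overlap, and the squamous tumors were below all 9 other RhoC tumors, as for 3.77% of all tested genes. Of all tested genes, 8.82% were below all complex adenocarcinomas. *Cldn6* did not overlap either, at 1.32, 1.78 and 28.9 CPM in the squamous tumors and 0.0336, 0.138, 0.0509 and 1.25 CPM in the complex adenocarcinomas, which made 3 of 10 members without overlap in either direction, beside 17.3% of all tested genes.

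*Cldn3* measured 21.9, 45.2 and 96.7 CPM in the squamous tumors and 180, 55.7, 122 and 175 CPM in the complex adenocarcinomas. They overlapped because R-10 was low, and the ratio of medians was 0.304. For *Ocln* the values were 15.4, 18.7 and 38.5 CPM against 58.0, 27.0, 36.0 and 70.0 CPM, with a ratio of medians of 0.397. The other 5 members overlapped as well, with ratios of medians of 0.836 for *Cldn1*, 0.741 for *Cldn5*, 0.481 for *Cldn8*, 0.582 for *Epcam* and 1.02 for *Tjp1*.

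Values were also compared inside single mice. In N9255 the squamous tumor R-6 and the complex adenocarcinoma R-7 had 21.9 and 180 CPM of *Cldn3*, 38.9 and 193 CPM of *Cldn7*, 15.4 and 58.0 CPM of *Ocln*, and 323 and 98.2 CPM of *Cldn4*. In P497, where only R-16 is a complex adenocarcinoma and R-15 is listed as a solid nodular or poorly differentiated carcinoma, the squamous tumors R-13 and R-14 were below R-15 and R-16 for *Cldn3* (45.2 and 96.7 against 150 and 175 CPM) and above them for *Cldn4* (223 and 186 against 85.0 and 85.9 CPM). *Cldn6* did not keep the order there, with 1.78 CPM in R-13 and 11.6 CPM in R-15. The sums of 10 squamous keratinocyte markers were 8543 CPM in R-6, 4255 in R-13 and 2205 in R-14, the highest of all tumors, and the sums of 7 basal epithelium markers were 17219, 12645 and 5952 CPM, also the highest. The RhoC medians were 49.8 and 439 CPM. Of the squamous markers, 3 of 10 had counts in every tumor and 1 was under 1 CPM in each. Between cohorts, 4 of the 6 tested squamous markers had estimates above 0 and 2 below, none called. Those below were *Sbsn* and *Krt10*, the latter at 1.13 ± 0.64 CPM in RhoC tumors, squamous ones included, and 38.0 ± 93.6 CPM in controls (SD, n = 12 and 9). The part of the squamous and basal markers in the claudin differences was not tested.

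The only tumor listed as a spindle cell tumor, the control N-1, did not stand apart in the epithelial claudins. It measured 132 CPM of *Cldn3*, 117 CPM of *Cldn4*, 88.0 CPM of *Cldn7* and 458 CPM of *Epcam*. Of the 8 other controls, 4 were below it for *Cldn3*, 5 for *Cldn4*, 2 for *Cldn7* and 2 for *Epcam*, so it was among the lower controls for the last 2. N-1 also had the highest squamous (1703 CPM) and basal (3029 CPM) marker sums of the controls. In no tumor were *Cldn3*, *Cldn4* and *Cldn7* all near 0, since *Cldn3* never fell under 21.9 CPM and *Cldn7* never under 38.9 CPM.

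*Cldn3* and *Cldn4* are neighboring genes on chromosome 5 of GRCm38, 39279 bp apart, at 134986214-134987472 and 134945119-134946934. Even so, their ratio changed widely. *Cldn4* over *Cldn3* in CPM ran from 0.0281 in R-21 to 14.7 in R-6 with a median of 0.636, and it was over 1 in 4 tumors, R-6 (14.7), R-13 (4.93), N-15 (1.95) and R-14 (1.93). The low end held R-21, N-3 at 0.063 and R-10 at 0.176. The 3′ end of *Cldn3* overlaps an antisense annotation, *Wbscr25*, and the strand setting of the counting was not given in the sources used here, and reads on more than 1 gene were discarded, so without strand the shared reads would be missing from the *Cldn3* count. In GENCODE M21, *Tjp1* holds 3 further annotations, *Gm44792* and *Gm44794* on its own strand and *Gm44795* on the other, and the other 8 members overlap none. If the annotation used for counting held them, any reads shared with *Gm44792* or *Gm44794* would be missing from the *Tjp1* count under either strand setting.

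**Figure D4:**
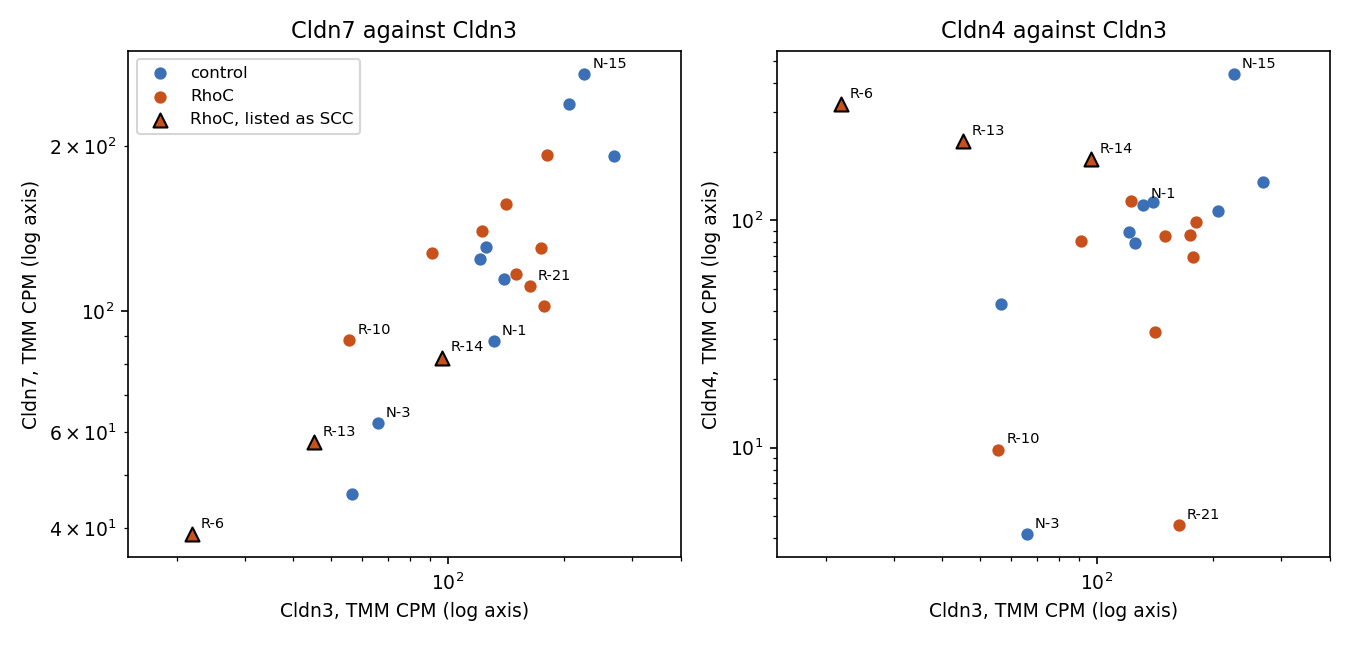
*Cldn7* (left) and *Cldn4* (right) against *Cldn3* in TMM CPM (log axes) in 21 tumors, with controls in blue, RhoC in orange and the 3 squamous cell carcinomas as triangles. *Cldn7* is higher where *Cldn3* is higher, while *Cldn4* is high in the squamous tumors, where *Cldn3* is 21.9 to 96.7 CPM, and low in R-21 at a *Cldn3* level of 163 CPM.

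How the members varied together was described by the correlation of log2 CPM over the 21 tumors, for all 45 pairs. The tumors share mice and sequencing depth differs, so they are not independent points. Pearson r was above 0.5 for 6 pairs, positive for 27 and had a median of 0.0365. The closest pair was *Cldn3* and *Cldn7*, at r = 0.873 and a Spearman coefficient of 0.771 (unadjusted permutation p = 1e-05, the smallest that 100000 resamples give, and 8e-05). It was 0.811 without R-6 and R-13, the tumors farthest from the median of *Cldn3*, 0.938 within controls, 0.871 within the RhoC cohort and 0.809 over the means of 17 mice.

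*Cldn3* and *Ocln* followed at r = 0.694 and a Spearman coefficient of 0.578 (unadjusted permutation p = 5.80e-04 and 0.00722), but without R-6 and R-13 r was 0.436, so much of the relation rests on these tumors. It was 0.365 within controls, 0.862 within the RhoC cohort and 0.457 over mouse means. *Cldn1* and *Epcam* had r = 0.625 and a Spearman coefficient of 0.392 (unadjusted permutation p = 0.00465 and 0.0797), and r was 0.296 without R-10 and N-6. The highest r of *Cldn4* over all tumors was 0.334, with *Cldn1*, at a Spearman coefficient of 0.116, and r was −0.0579 without R-10 and N-6. With *Cldn3* the r of *Cldn4* was 0.0718, but the cohorts differed in sign, at 0.768 within controls and −0.357 within the RhoC cohort. Without R-6 and R-13 it was 0.513. Likewise *Cldn4* and *Cldn7* had r = 0.717 within controls and −0.352 within the RhoC cohort. These differences between cohorts were not tested. *Epcam* had r = 0.502 with *Cldn3*, 0.359 with *Cldn7* and 0.569 with *Ocln*, which were −0.0572, −0.0132 and 0.430 within controls and 0.797, 0.695 and 0.725 within the RhoC cohort. *Cldn7* and *Ocln* had r = 0.521, with 0.168 within controls and 0.843 within the RhoC cohort. *Cldn6* and *Tjp1* had the lowest r, −0.398 (Spearman coefficient −0.402; unadjusted permutation p = 0.0738 and 0.0712), with −0.0368 within the RhoC cohort, −0.546 within controls, where *Cldn6* had few reads, and −0.618 over mouse means.

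**Figure D5:**
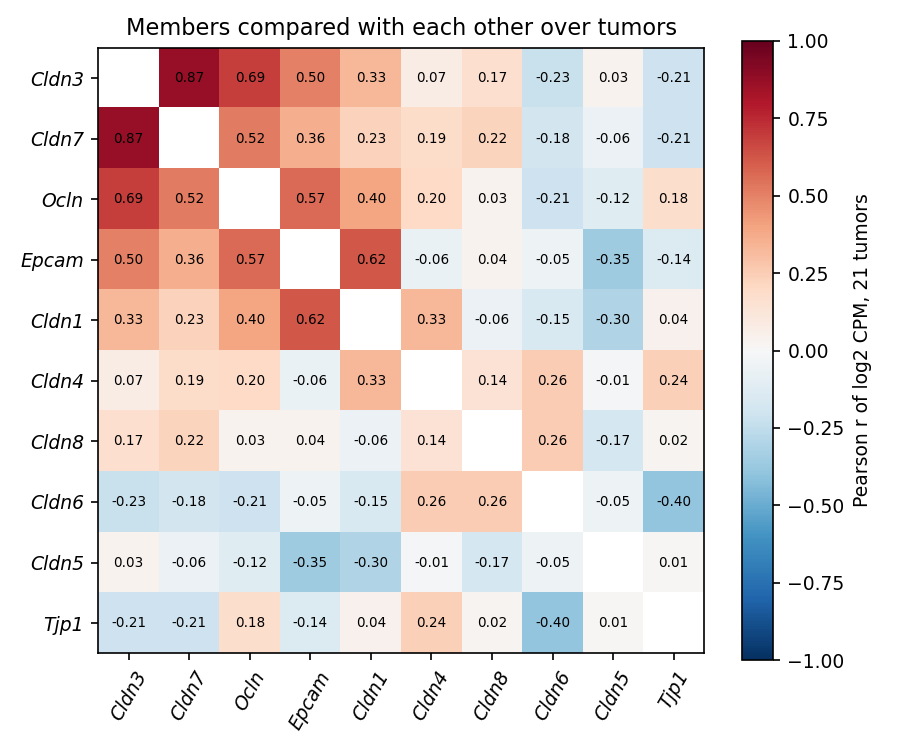
Pearson r of log2 CPM between each pair of members over 21 tumors, from −1 (blue) to 1 (red). *Cldn3*, *Cldn7*, *Ocln* and *Epcam* form the red corner with r from 0.36 to 0.87 over all tumors (−0.0572 for *Cldn3* with *Epcam* within controls), and the lowest value is −0.40 for *Cldn6* and *Tjp1*.

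For each member the 3 genes most like it over the 21 tumors were sought among 14516 genes by Pearson r of log2 CPM. *Ocln* was closest to *Marveld2* (r = 0.923), which encodes tricellulin, the protein of the corners where 3 cells meet, and lies near *Ocln* on chromosome 13. *Cldn3* was closest to *Gpd1l* (0.894), *1700088E04Rik* (0.892) and *Cldn7* (0.873), and *Cldn7* to *Cldn3*, *Gpd1l* (0.844) and *1700088E04Rik* (0.822). Among the genes most like *Cldn4* were *Tdrd7* (0.841) and the integrin subunit *Itgb6* (0.836). *Cldn6* was closest to *Pwwp3b* (0.885), the luminal transcription factor *Foxa1* (0.874) and *Sv2c* (0.846). Within controls, where *Cldn6* had few reads, these were 0.590, 0.723 and 0.0862, and within the RhoC cohort 0.850, 0.883 and 0.894.

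*Cldn5* was closest to *Nova2* (0.827), the endothelial cadherin *Cdh5* (0.827) and the Notch ligand *Dll4* (0.794). *Ocln* had *Map3k21* (0.895) and *Trp53bp2* (0.862) after *Marveld2*, and *Epcam* had *Golph3l* (0.820), *Tgoln1* (0.815) and *Tmem139* (0.814). *Tjp1* was closest to the Notch coactivator *Maml3* (0.836), the ubiquitin ligase *Siah1a* (0.807) and *Klf3* (0.804). *Cldn1* was closest to *Irx2* (0.811), *Gm16136* (0.803) and *Slc5a8* (0.773), and *Cldn8* to *Alox15* (0.715), *Slc29a4* (0.703) and *Slc2a9* (0.697). These are the highest values of a search over many genes and carry no test.

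Other genes of the junction were read from lists written for this purpose, and no gene of any of them was called by edgeR in either direction. The counts at an unadjusted p under 0.05 that follow stand beside 20.5% of all genes tested, and none is read as a result about its list. Of 25 other claudins in the files, 6 had enough counts to be tested, and 0 of 6 had an unadjusted p under 0.05. *Cldn15*, a claudin of the gut, had the smallest p, at a log2 fold change of −1.05 ± 0.54 (SE; edgeR adjusted p = 0.274), and *Cldn23* followed at −0.45 ± 0.64 (SE; edgeR adjusted p = 0.715). The median log2 fold change of the 6 was 0.09.

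Of 10 other membrane proteins, 1 had an unadjusted p under 0.05 (20.5% of all genes tested). This was *Marveld2*, whose mean was 34.0 ± 14.8 CPM over the RhoC cohort and 51.0 ± 17.1 CPM over controls (SD, n = 12 and 9) and a log2 fold change of −0.58 ± 0.27 (SE; edgeR adjusted p = 0.232). *Jam2*, an adhesion molecule of vessels, was next at 0.68 ± 0.56 (SE; edgeR adjusted p = 0.502). The median of the list was 0.07. Among 15 scaffold and plaque proteins 0 had an unadjusted p under 0.05, with a median of 0.02. *Tjap1* had the smallest p at 0.30 ± 0.15 (SE; edgeR adjusted p = 0.254), followed by *Magi3* at −0.40 ± 0.21 (SE; edgeR adjusted p = 0.277).

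Of 9 polarity genes, 3 had an unadjusted p under 0.05 (20.5% of all genes tested), 2 of them higher and 1 lower, with a median log2 fold change of 0.17. *Prkci*, the atypical protein kinase C of the Par complex, measured 125 ± 32.1 CPM in RhoC tumors and 182 ± 72.7 CPM in controls (SD, n = 12 and 9), a log2 fold change of −0.54 ± 0.20 (SE; edgeR adjusted p = 0.144). *Pard6g*, a Par6 protein, measured 38.6 ± 50.7 and 11.1 ± 8.44 CPM, a log2 fold change of 1.80 ± 0.67 (SE; edgeR adjusted p = 0.154).

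Among 8 EMT factors and cadherins, 1 had an unadjusted p under 0.05 (20.5% of all genes tested), and estimates were above 0 for 3 and below 0 for 5. This was *Zeb2*, a repressor of epithelial genes, with a mean of 84.5 ± 37.7 CPM in the RhoC cohort and 132 ± 79.2 CPM among controls (SD, n = 12 and 9), a log2 fold change of −0.64 ± 0.31 (SE; edgeR adjusted p = 0.241). *Zeb1* was at −0.39 ± 0.32 (SE; edgeR adjusted p = 0.507). *Twist1* was at −0.73, *Cdh1* at −0.15 and *Vim* at −0.0005, while *Cdh2* was at 0.87, *Snai2* at 0.56 and *Snai1* at 0.42. None of them was called, and the median of the list was −0.07.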

How the data were processed

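For each of 21 tumors the authors deposited raw counts per gene, which are whole numbers without normalization. They also deposited FPKM values, scaled by the authors for gene length and depth, which were used only for the order of levels between genes. Per the submitters' processing notes, reads were checked with FastQC 0.11.5, trimmed with Trim Galore 0.5.0, aligned with STAR 2.6.0c and counted with HTSeq 0.6.1p2. Reads on more than one place or gene were discarded, so reads shared by near-identical copies are missing. The annotation release and strand setting were not given in the sources used here. Positions are those of the deposited tables on GRCm38. Columns of the authors' own comparisons (fold changes and p-values) were not used, and all per-sample columns were mapped to a tumor.

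Counts were tested in R 4.3.3 with edgeR 4.0.16 (TMM normalization, filterByExpr by cohort, quasi-likelihood test, no covariates) on 19315 of 38730 genes with a count, Benjamini-Hochberg adjusted over all of them and called under 0.05. Log2 CPM used a prior count of 2. The standard error is the log2 fold change divided by the square root of F. Single values were compared by exact permutation over all 293930 labelings, 2-sided and unadjusted. Where tumors share a mouse, p-values treat them as independent. DESeq2 1.42.0, limma 3.58.1 (voom) and the other alternatives are given in the closing section. The permutations over mouse means and without mouse P497 were added after seeing the data. The fit was tested on simulated data.

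The members and gene lists were chosen with earlier results of these data known. Named genes are the 10 members, in each other list of junction genes every called gene and the 2 with the smallest p, the 3 genes most like each member, the genes of the engineered alleles, and markers a result moves with. Results for 2 items, 1 gene and 1 gene list, are not reported here. *Zeb1* was named as the second EMT factor by p, and *Cdh2*, *Snai1*, *Snai2*, *Twist1*, *Cdh1* and *Vim* after their values were seen. The mouse given for R-21 in its label is listed by the study for another tumor, R-20, which is not settled. A count of 0 was given a floor of 3 reads.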

Additional observations from a re-analysis of the deposited data

Results flagged for a closer look

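In 2 of 10 member genes a control tumor lay far from the other 8 on the log2 CPM scale, measured as its gap to the nearest control over the whole range of the 9 controls. Chance gives such a gap in about 1 in 20 groups. For *Cldn4* the lowest control was N-3, with a gap of 0.5 of the range against a critical value of 0.493. N-3 measured 4.16 CPM of *Cldn4* beside 66.0 CPM of *Cldn3* and 62.2 CPM of *Cldn7*. It also had the lowest luminal (1205 CPM) and the highest leukocyte (1374 CPM) marker sums of the controls, and their part was not tested. For *Cldn5* the highest control was N-17, with a gap of 0.571 of the range, and this tumor also had the highest endothelial, fibroblast, adipocyte and skeletal muscle marker sums of the controls. The part of these markers in its *Cldn5* level was not tested. The check was limited to groups of 4 to 10 tumors, so the 12 RhoC tumors were not put to it. Among them R-10 stood apart in *Cldn1*, at 6.13 CPM against 86.3 CPM in the next lowest, with the lowest luminal marker sum of all tumors (1065 CPM).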

How the results depend on the processing

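Of all genes, 43 were called. The count was 1206 with DESeq2 and its own size factors, 438 with only the *Gata4* loxP/+ controls, and 27 with library size in place of TMM. It was 26 without the squamous cell carcinomas and 19 without N-1. It was 3 each with counts summed per mouse, with voom and a random effect for the mouse together, and without mouse P497. Leaving out 1 tumor at a time gave 14 (without N-9) to 346 (without N-15). No member other than *Cldn6* was called in any of these fits, and *Cldn6* passed the filter in 13 of 21 fits that left out a tumor, with log2 fold changes of 5.54 to 6.58. The 8 fits without a value are those that left out a RhoC tumor above every control, so this range holds only with all of these tumors kept. *Cldn6* had no value with counts summed per mouse either. Over the alternatives its adjusted p ran from 4.39e-04 to 0.328.

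The controls and RhoC tumors share the numbers 1, 6, 7 and 15 but come from different mice, and deviations of same-numbered tumors correlated at −0.237, −0.185, −0.00294 and 0.0217, so the numbers do not pair them. With the tumor number as a replicate block over these 8 tumors, edgeR called 0 of 18939 genes, with 1346 at an unadjusted p under 0.05, and *Cldn6* had no value.

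Some estimates changed sign, and none of these was called. They include *Cldn5*, at −0.54 with all tumors. *Epcam* was at 0.0092 with library size, 0.0034 without P497, 0.11 without the squamous tumors and 0.20 with the replicate block, and −0.105 to 0.0867 leaving out 1 tumor. With only the *Gata4* loxP/+ controls *Cldn4* was at 0.29 and *Cldn5* at 0.28. Leaving out 1 tumor gave −0.50 to 0.31 for *Cldn4*, −0.72 to 0.37 for *Cldn5* and −0.69 to 0.13 for *Cldn8*, which was 0.10 with the block. Relative to *Krt19* and *Cdh1* instead of *Krt8* and *Krt18*, the log2 ratio differences were 0.11 for *Cldn4*, 0.13 for *Cldn5*, 0.10 for *Cldn7* and 0.12 for *Cldn8*. Without N-1 the correlations of *Tjp1* with *Cldn1*, *Cldn5* and *Cldn8* were −0.0011, −0.0069 and −0.0019. The cause was not tested. *Cldn1*, *Cldn3*, *Cldn7*, *Ocln* and *Tjp1* kept a negative estimate in all 10 alternatives and all 21 fits that left out a tumor.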
